A study of Mus musculus with 15 samples.

Results

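Expression of 10 genes for contractile and cytoskeletal proteins of smooth muscle cells and myofibroblasts was compared between 3 groups of mouse heart cells. They were Tagln, Tagln2, Cnn1, Cnn2, Tpm1, Tpm2, Myl9, Cald1, Actg2 and Des. The genes were taken by name, and 10 of 10 had a value, each from 1 probe set, among 13513 named genes with a value. No filter on low values was applied. EpiSC were stromal cells of the epicardium, shaken off the surface of hearts taken 5 days after myocardial infarction. aCF were activated fibroblasts from the ventricles of infarcted hearts, also taken at 5 days. CF were fibroblasts from the ventricles of unstressed hearts, prepared without the shaking step. All hearts came from wild-type C57BL/6 mice aged 8 to 12 weeks and were perfused with collagenase, and each group had 5 arrays, which the design text calls biological replicates. The protocol describes taking EpiSC and aCF from an infarcted heart at the same time, so arrays of these groups may share hearts, but no label ties an array number to a heart. No group of sham-operated hearts is named, and no source used here mentions a cell sort. EpiSC and aCF differ in cell type and in isolation together, and aCF and CF differ in infarction and in the shaking step together, so these cannot be told apart.

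Apart from desmin (Des), an intermediate filament protein, these proteins build and regulate the actin filaments with which smooth muscle cells and myofibroblasts pull. Transgelins and calponins bind actin filaments, tropomyosins lie along them and, with caldesmon, govern the access of myosin, and the regulatory light chain switches myosin on when it is phosphorylated. After infarction, heart fibroblasts convert to myofibroblasts, which assemble stress fibres and contract the scar. Many genes of this set are known targets of serum response factor (SRF), which binds a DNA element called the CArG box together with cofactors that respond to the state of the actin cytoskeleton.

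Each value is a log2 deviation from the probe set's own median over the 15 arrays, which keeps the differences between groups and loses the level of a gene. The base of the logarithm is inferred, and the signal over background is lost. Gene names rest on an inferred displacement in the deposited table: the values of an identifier stand 6900 rows further down, or 6903 rows for identifiers of chromosomes 10 and 11, which among these genes applies to Cnn2 alone. No header states this. Read this way, deviations of the 10 genes from their group means had a mean correlation of 0.35 over 45 pairs and 15 arrays, against 0.06 as deposited, 0.13 one row after and -0.002 one row before the displaced rows. Cnn2 correlated at 0.80 with the mean of the other 9 genes at 6903 rows and at 0.004 at 6900 rows. Other displacements gave 0.54 at 6901, 0.21 at 6902, 0.33 at 6904, -0.27 at 6905 and 0.36 at 6906 rows. Rows of other genes can thus also reach sizeable correlations over so few arrays. These correlations are descriptions and share their arrays. The displacement was itself found from these values, so the correlations are no independent check of it. Correlations between arrays of a group over all rows lay between 0.42 and 0.52 for EpiSC, 0.03 and 0.43 for aCF, and 0.63 and 0.75 for CF, so the aCF arrays were the least alike.

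Promoters of 5 genes are shown because their genes carry most of the differences described here or, for Myl9 and Cnn2, because they hold the SRF element. Tagln and Actg2 have no entry in the table used. Sequences are from RefSeq (GRCm38.p6), 5′ to 3′ on the strand of the gene, and end at the base before the annotated gene. The CArG box is in capitals. Its pattern is the same on both strands, so 1 search covers both, although the letters of a given match need not be.
Myl9, chr2:156775214-156775407, plus strand: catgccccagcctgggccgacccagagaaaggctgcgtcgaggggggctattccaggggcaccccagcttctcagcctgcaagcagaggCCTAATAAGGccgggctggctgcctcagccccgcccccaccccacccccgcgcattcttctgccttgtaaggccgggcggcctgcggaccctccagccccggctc
Cnn2, chr10:79988350-79988599, plus strand: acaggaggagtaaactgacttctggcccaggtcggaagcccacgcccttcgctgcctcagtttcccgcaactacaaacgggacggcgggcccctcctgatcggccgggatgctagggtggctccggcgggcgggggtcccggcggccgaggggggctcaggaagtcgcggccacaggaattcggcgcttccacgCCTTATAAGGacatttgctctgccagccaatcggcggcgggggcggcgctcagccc
Cnn1, chr9:22099003-22099220, plus strand: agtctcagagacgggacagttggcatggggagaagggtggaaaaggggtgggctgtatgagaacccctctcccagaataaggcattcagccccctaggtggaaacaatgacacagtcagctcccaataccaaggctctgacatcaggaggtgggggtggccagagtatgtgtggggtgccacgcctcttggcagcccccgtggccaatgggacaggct
Tpm2, chr4:43523584-43523804, minus strand: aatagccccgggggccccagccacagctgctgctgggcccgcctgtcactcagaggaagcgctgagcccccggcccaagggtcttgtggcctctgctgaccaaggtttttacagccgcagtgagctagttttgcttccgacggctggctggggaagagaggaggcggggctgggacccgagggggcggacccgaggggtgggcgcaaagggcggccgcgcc
Des, chr1:75360042-75360291, plus strand: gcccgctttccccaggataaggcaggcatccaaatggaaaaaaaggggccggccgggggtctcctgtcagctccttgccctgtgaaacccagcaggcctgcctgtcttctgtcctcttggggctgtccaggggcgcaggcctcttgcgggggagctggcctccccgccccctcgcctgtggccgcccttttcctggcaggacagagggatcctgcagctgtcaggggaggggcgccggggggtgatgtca
In Myl9 the element began 105 bases before the gene, as CCTAATAAGG, and in Cnn2 it began 56 bases before it, as CCTTATAAGG. Over the 250 bases before the transcript start in the RefSeq table, 2 of the 8 genes with an entry held a CArG box, and 1.47% of 32851 mouse windows of that length did. The M-CAT motif, CATTCCT on either strand, a site for TEAD factors, was in 2 of the 8, Tagln2 and Tpm1, and in 4.51% of all windows. No M-CAT match overlapped a CArG box. A match is only a description of the letters, and elements outside these windows were not searched.

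In aCF against CF, 3 contractile genes were higher in the fibroblasts of infarcted hearts and 0 were lower, against 0.32% of all rows, with 0 also at an unadjusted p under 0.05, where 17.6% of all rows were lower. Tagln was 5.13-fold, Cnn1 7.88-fold and Tpm2 3.14-fold higher, and these 3 of 10 genes passed a Bonferroni-adjusted p of 0.05 in limma over all 22206 rows, where 1.53% of rows passed in either direction and 1.21% were higher. Actg2 had a larger difference, 9.96-fold, with a wider spread and an adjusted p of 0.0839. The remaining 6 genes had differences of 0.15 to 1.12 on the log2 scale and did not pass. The median difference of the 10 genes was 1.06, against -0.02 for all rows, and 10 of 10 were above 0, as were 44.9% of all rows. In 8 of the 10 genes, every aCF array lay above every CF array, which held for 7.88% of all rows. The exceptions were Tagln2 and Cald1. With the Benjamini-Hochberg adjustment 9 genes were higher, all but Cald1, against 8.74% of all rows. In bulk samples, fewer cells of a type and less RNA per cell cannot be told apart.

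In EpiSC against CF, a comparison that the design text does not name, 5 of the 10 genes were higher past the same threshold, where 2.91% of rows passed in either direction and 1.97% were higher. They were Actg2 at 12.7-fold, Cnn1 at 8.36-fold, Des at 6.44-fold, Tpm2 at 4.06-fold and Tagln at 3.45-fold. The median difference of the 10 genes was 1.25, against -0.01 for all rows, and 10 of 10 were above 0, as were 48.5% of all rows. Both comparisons use the same CF arrays, so these counts are not independent of those for aCF. Groups did not overlap for 8 genes, against 11.6% of all rows, the exceptions being Myl9 and Cald1. With the Benjamini-Hochberg adjustment 8 genes were higher, against 14.5% of all rows.

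In EpiSC against aCF, the 2 populations of the infarcted heart, only Des among the 10 genes passed the threshold, at 3.21-fold higher in EpiSC, where 0.666% of rows passed in either direction and 0.401% were higher. Of the others, 5 had positive and 4 had negative differences, and the median of the 10 was 0.19, against 0.01 for all rows. In no gene was EpiSC lower past the Bonferroni threshold, which 0.266% of all rows were, while at an unadjusted p under 0.05 Tagln and Myl9 were lower (11.9% of all rows) and 3 genes were higher (12% of all rows). With the Benjamini-Hochberg adjustment 3 genes differed, against 9.61% of all rows. They were Tagln2 and Des, which were higher (4.61% of rows), and Tagln, which was lower (5.01% of rows). In Tagln2, Tpm1 and Des every EpiSC array lay above every aCF array, which held for 5.18% of all rows.

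**Figure D1:**
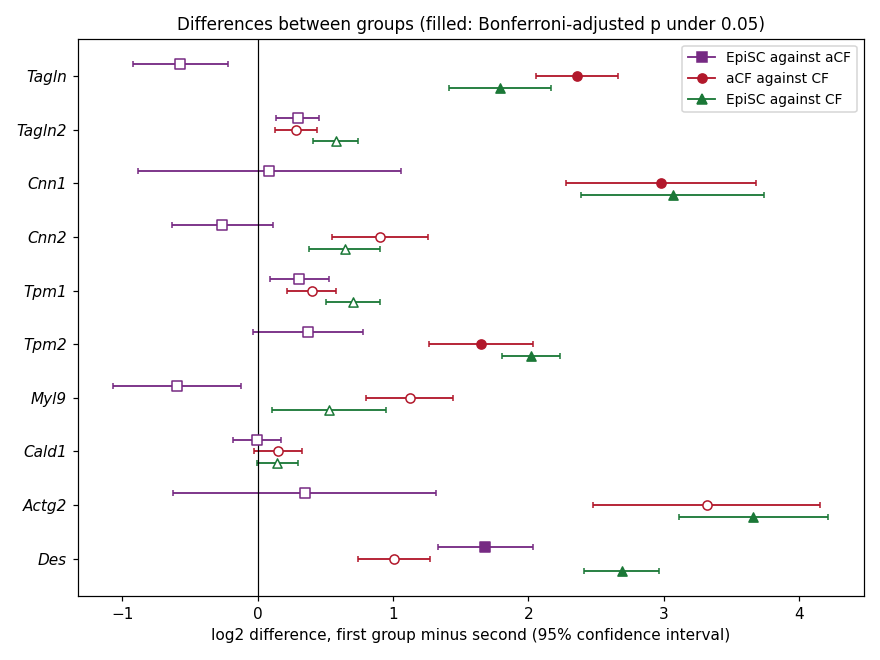
Differences between groups for the 10 genes, as log2 difference of the first group minus the second (horizontal axis), with 95% confidence intervals from limma; squares are EpiSC against aCF, circles aCF against CF and triangles EpiSC against CF, and filled symbols passed the Bonferroni threshold. The circles and triangles of Cnn1 and Actg2 lie furthest right, between 2.98 and 3.66, and Des has the one filled square, at 1.68.

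Tagln encodes transgelin, an actin-binding protein long used as an early marker of smooth muscle differentiation. In arrays 1 to 5 of each group it had values of 0.05, -0.04, -0.01, 0.72 and 0 in EpiSC, 0.48, 0.81, 0.51, 0.94 and 0.84 in aCF, and -1.5, -1.6, -1.78, -1.33 and -2.01 in CF. Every array of an infarcted heart lay above every CF array, and EpiSC4 alone among the EpiSC arrays reached the range of aCF. Differences are given from here on as log2 difference ± SE of the limma fit, with the Bonferroni-adjusted p unless another is named. That of aCF against CF was 2.36 ± 0.14 (adjusted p = 0.000111), and it passed after leaving out each of the 10 arrays in turn. EpiSC exceeded CF by 1.79 ± 0.17 (adjusted p = 0.0170), and this call was kept only without EpiSC4 or without CF4, the adjusted p reaching 0.110 without CF3. For EpiSC against aCF the difference was -0.57 ± 0.16, with an adjusted p of 1 and a Benjamini-Hochberg adjusted p of 0.0487.

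Tagln2 encodes transgelin 2, a relative found in many cells outside muscle. Its values were 0.44, 0.31, 0.15, 0.31 and 0.26 in EpiSC, 0, -0.06, -0.11, 0.11 and 0.06 in aCF, and -0.09, -0.32, -0.34, -0.27 and -0.39 in CF. All 15 arrays fell within a range of less than 1 log2 unit, with EpiSC on top and aCF and CF touching at CF1. The means were 0.29 ± 0.10 in EpiSC, 0.00 ± 0.09 in aCF and -0.28 ± 0.12 in CF (SD, n = 5 each), and no pair of groups passed the Bonferroni threshold. The largest difference, EpiSC against CF, was 0.58 ± 0.08 (SE, adjusted p = 0.317).

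Cnn1 encodes calponin 1, which binds actin and restrains the myosin motor in smooth muscle. It had values of 0, 0.15, 0.16, 1.85 and 0.53 in EpiSC, -0.43, 0.23, -0.09, 1.43 and 1.12 in aCF, and -2.51, -2.58, -2.62, -2.34 and -2.58 in CF. The CF arrays lay within 0.28 of each other, whereas EpiSC4, aCF4 and aCF5 stood well above the other arrays of their groups. aCF exceeded CF by 2.98 ± 0.32 (adjusted p = 0.0427), and this call was lost on leaving out any 1 array other than aCF1 and aCF4, the adjusted p reaching 0.245 without CF3. EpiSC exceeded CF by 3.06 ± 0.31 (adjusted p = 0.0271), a call kept only without EpiSC4, the adjusted p reaching 0.169 without CF3. Between EpiSC and aCF the difference was 0.09 with a 95% confidence interval of -0.88 to 1.06, which spans both directions.

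Cnn2 encodes calponin 2, the form found in non-muscle cells as well. Its values were 0.21, 0, -0.04, 0.41 and -0.11 in EpiSC, 0.08, 0.02, 0.22, 0.69 and 0.77 in aCF, and -0.46, -0.52, -0.83, -0.34 and -0.59 in CF. All 10 arrays of infarcted hearts lay above the 5 CF arrays, with EpiSC and aCF overlapping. The differences were 0.90 ± 0.16 for aCF against CF and 0.64 ± 0.12 for EpiSC against CF, both with a Bonferroni-adjusted p of 1 and with Benjamini-Hochberg adjusted p of 0.00312 and 0.00238 in that order. Calponin 3 (Cnn3), the third member of the calponin family, passed in aCF against CF at 0.73 ± 0.07 (adjusted p = 0.0292).

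Tpm2 encodes the beta tropomyosin of smooth and skeletal muscle. Its values were 0.48, 0.51, 0.48, 0.86 and 0.42 in EpiSC, -0.20, 0, -0.14, 0.68 and 0.56 in aCF, and -1.54, -1.48, -1.35, -1.33 and -1.65 in CF. Every CF array lay well below every array of an infarcted heart, and aCF4 and aCF5 were higher than 4 of the 5 EpiSC arrays while the other 3 aCF arrays were lower than all of them. EpiSC exceeded CF by 2.02 ± 0.10 (adjusted p = 2.15e-05), and this passed in 10 of 10 omissions of an array. aCF exceeded CF by 1.65 ± 0.17 (adjusted p = 0.0396), and this call was lost on leaving out any 1 array other than aCF1 and aCF4, the adjusted p reaching 0.231 without CF1.

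Tpm1 encodes the alpha tropomyosin, whose spliced forms serve heart muscle, smooth muscle and non-muscle cells and are read together by 1 probe set here. Its values were 0.26, 0.26, 0.27, 0.63 and 0.26 in EpiSC, -0.16, 0, -0.04, 0.17 and 0.18 in aCF, and -0.30, -0.44, -0.45, -0.21 and -0.44 in CF. The 3 groups did not overlap, with EpiSC highest and CF lowest, over a much narrower range than Tpm2. Differences were 0.70 ± 0.09 for EpiSC against CF (adjusted p = 0.235), 0.40 ± 0.08 for aCF against CF and 0.31 ± 0.10 for EpiSC against aCF, the last 2 with an adjusted p of 1.

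Cald1 encodes caldesmon, which binds actin, myosin and tropomyosin and has a long smooth muscle form and a short form of other cells, not separated here. Its values were 0.02, 0.12, 0.08, 0.01 and -0.10 in EpiSC, 0, 0.09, 0.25, -0.08 and -0.11 in aCF, and 0.05, -0.12, -0.15, -0.23 and -0.15 in CF. The 3 groups overlapped, and all 15 arrays lay between -0.23 and 0.25. The 95% confidence intervals of the differences were -0.18 to 0.18 for EpiSC against aCF, -0.03 to 0.33 for aCF against CF, and -0.005 to 0.30 for EpiSC against CF. No comparison passed at either adjustment, and the intervals hold no difference as large as those of Tagln, Cnn1 or Tpm2 against CF.

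Actg2 encodes the gamma actin of smooth muscle, best known from the gut and bladder wall. It had values of 0.93, 0, 0.21, 1.37 and 0.23 in EpiSC, -0.70, 0.26, -0.79, 1.24 and 1.00 in aCF, and -3.35, -3.02, -2.98, -2.88 and -3.34 in CF. CF formed a tight group more than 2 log2 units below all other arrays, while aCF1 and aCF3 stood about 2 log2 units below aCF4. EpiSC exceeded CF by 3.66 ± 0.25 (adjusted p = 0.000626), which passed in 10 of 10 omissions of an array. The difference of aCF against CF was 3.32 ± 0.38 (adjusted p = 0.0839). That difference passed in 1 of 10 omissions of an array, without aCF3, at 3.56 (adjusted p = 0.0397), and the adjusted p reached 0.460 in the others. It also passed without both aCF4 and aCF5, at 2.70 (adjusted p = 0.0437), and with all 3 groups in 1 fit (adjusted p = 0.00803). Alpha actin of smooth muscle, Acta2, the usual marker of myofibroblasts, had no value under the pairing and was not analysed here. The same holds for smooth muscle myosin (Myh11) and its kinase (Mylk).

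Myl9 encodes the regulatory light chain of smooth muscle and non-muscle myosin. Its values were -0.30, 0, -0.10, 0.81 and 0.28 in EpiSC, 0.55, 0.46, 0.61, 1.2 and 0.85 in aCF, and -0.21, -0.59, -0.40, -0.57 and -0.17 in CF. The aCF arrays lay above all CF arrays and above 4 of 5 EpiSC arrays, and EpiSC overlapped with both other groups. The differences were 1.12 ± 0.15 for aCF against CF (adjusted p = 0.272) and 0.53 ± 0.19 for EpiSC against CF (adjusted p = 1). For EpiSC against aCF it was -0.60, with a 95% confidence interval of -1.07 to -0.13 and an adjusted p of 1. Myl9 and Tagln were thus the genes with the most negative differences in EpiSC against aCF among the 10.

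Des encodes desmin, the intermediate filament protein of muscle, which ties the contractile apparatus together and is also known from pericytes. Its values were 1.56, 2, 1.55, 1.23 and 1.69 in EpiSC, -0.31, 0, -0.39, 0.25 and 0.07 in aCF, and -1.27, -1.04, -1.03, -1.03 and -1.04 in CF. The 3 groups were separate, in the order EpiSC, aCF, CF, and the lowest EpiSC array, at 1.23, stood far above the highest aCF array, at 0.25. EpiSC exceeded CF by 2.69 ± 0.12 (adjusted p = 1.48e-05), which passed in 10 of 10 omissions of an array. EpiSC exceeded aCF by 1.68 ± 0.16 (adjusted p = 0.0174). It was lost in a fit with the array number as a block (adjusted p = 0.715), and whether the numbers mark shared hearts is not known. The call was kept without EpiSC2, EpiSC4 or aCF4 and lost without any of the other 7 arrays, with differences of 1.60 to 1.72 and adjusted p of 0.0655 to 0.107. The difference of aCF against CF was 1.01 ± 0.12 (adjusted p = 0.127), and the Benjamini-Hochberg adjusted p was 0.000281.

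**Figure D2:**
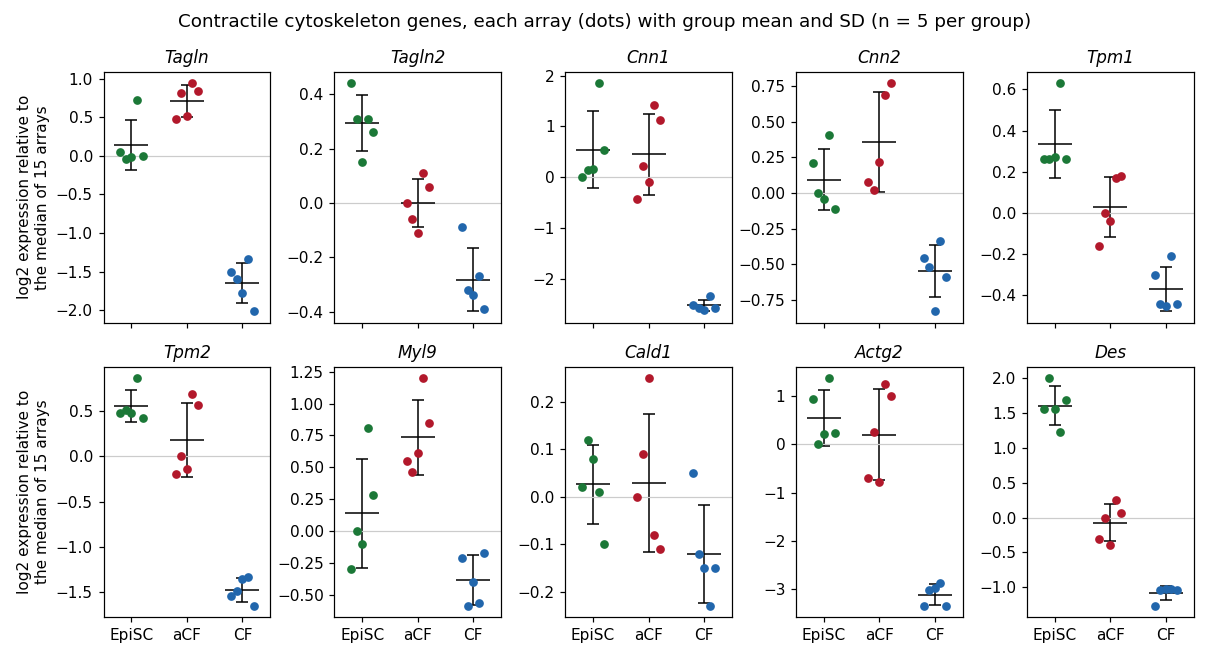
Expression of the 10 genes in each array (dots), as log2 value relative to the median of 15 arrays (vertical axis, a separate scale for each gene), with group mean and SD (n = 5 each) for EpiSC, aCF and CF from left to right. In Cnn1, Tpm2 and Actg2 the CF arrays sit far below both other groups, whereas Des falls in steps across the 3 groups.

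The 10 genes did not vary alike within groups. EpiSC4 was the highest EpiSC array for 7 of the 10 genes, and aCF4 was the highest aCF array for 7. CF4 was the highest CF array for 7, in a tie with CF3 for Des. On average over the 10 genes, EpiSC4 lay 0.39 and aCF4 lay 0.40 above the mean of its group, aCF5 lay 0.27 above it, and aCF1 and aCF3 lay 0.33 and 0.26 below it. Cnn1 and Actg2 had the largest spread within aCF, with SDs of 0.79 and 0.94. Deviations from group means correlated at 0.91 between Tagln and Tpm1 and between Cnn1 and Tpm1, at 0.90 between Tpm2 and Actg2, and at 0.88 between Cnn1 and Tpm2. Cald1 ran against the others, with -0.59 against Actg2 and -0.54 against Tpm2, and Des had correlations between -0.14 and 0.37 with the other genes apart from Cald1. These are descriptions over 15 arrays, and a shift common to an array enters all of them.

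**Figure D3:**
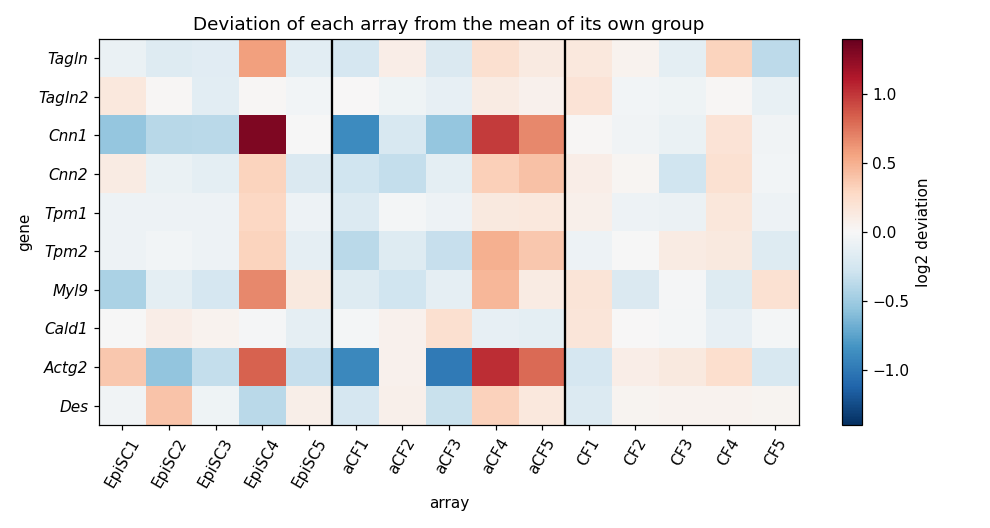
Deviation of each array (columns, EpiSC, aCF and CF from left to right) from the mean of its own group for each gene (rows), in log2 units by colour. Red marks EpiSC4, aCF4 and aCF5 in most rows, most strongly for Cnn1 and Actg2, while the rows of Tagln2 and Cald1 stay pale.

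Markers of other cells that could contribute contractile genes moved with the arrays in different ways. Mural cells, the pericytes and smooth muscle cells around vessels, express many of these genes, and 10 of 12 mural markers had a value. Their mean was -1.44 to -1.01 in EpiSC, 0.43 to 0.69 in aCF and -0.40 to 0.49 in CF. Rgs5, a pericyte marker, was -3.17 to -2 in EpiSC, 0.39 to 1.16 in aCF and -0.91 to 0.27 in CF, and EpiSC differed from aCF by -3.58 ± 0.21 (SE, adjusted p = 0.000162). In that comparison 4 of the 10 mural markers were lower and 0 higher (0 also at an unadjusted p under 0.05 and with the Benjamini-Hochberg adjustment). The mean of the mural markers was thus lowest in EpiSC and highest in aCF by median, though not for each marker. Of the 10 genes, Tagln, Myl9 and Cnn2 also had their highest means in aCF, whereas Des, Actg2, Tpm2, Tpm1, Tagln2 and Cnn1 had theirs in EpiSC, and Cald1 averaged 0.03 in each. EpiSC4, with the highest contractile values, had a mural mean of -1.05 within the EpiSC range. The mural means of aCF and CF overlapped at CF1, and 1 of the 10 mural markers (Rgs4) was higher in aCF than in CF past the threshold. With the Benjamini-Hochberg adjustment 4 were higher and 1 lower, and in 3 of them (Rgs4, Mcam and Rgs5, with differences of 2.38, 1.58 and 1.13) every aCF array lay above every CF array. The lower 1 was Heyl, at -0.33, with every aCF array below every CF array. Abcc9, Vtn and Kcnj8 also had negative differences, of -0.62, -0.30 and -0.30. The median difference of the 10 markers was 0.17. The part of mural cells in the aCF values was not tested.

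Heart muscle cells also express Des, Tpm1 and other genes of the set, and 18 of 24 heart muscle markers had a value. Their mean was -0.50 to -0.23 in EpiSC, -0.42 to 0.21 in aCF and 0.11 to 0.31 in CF, and the medians ran in the reverse order of Des. In EpiSC against CF, 3 of the 18 were lower, Myl2, Myl3 and Tnnt2, and 0 were higher at the Bonferroni threshold. Of these, Tnnt2 differed by -2.24 ± 0.22 (SE, adjusted p = 0.0235). With the Benjamini-Hochberg adjustment 11 were lower and 1 higher, as at an unadjusted p under 0.05. The higher 1 was Myl7, at 1.85 ± 0.28 over CF and 2.38 ± 0.28 over aCF. Its EpiSC arrays all lay above those of both other groups. In EpiSC against aCF 0 of the 18 passed the Bonferroni threshold, with 1 higher and 4 lower by Benjamini-Hochberg and 1 and 8 unadjusted. In aCF, Myl2 was 0.02, 0, 0.50, -1.79 and -1.97 in arrays 1 to 5, so the 2 arrays that were high in contractile genes were low in this ventricular light chain. That association was not tested. The labelled cell types were checked against further markers. The epicardial genes had means of 1.5 to 2.22 in EpiSC, -0.72 to 0.29 in aCF and -0.93 to -0.23 in CF. Wt1 was higher in EpiSC than in aCF by 2.01 ± 0.18 (adjusted p = 0.00883). In that comparison 6 of the 11 measured epicardial genes were higher and 0 lower at the Bonferroni threshold, while Tbx18 (0.10) and Aldh1a2 (-0.02) barely differed. The 10 measured fibroblast genes were split in aCF against CF, with a median of 0.02. At the Bonferroni threshold Col1a1, Col1a2 and Col3a1 were higher and Ddr2 was lower, at -0.69. Tcf21 had a difference of -0.38. The 6 measured activated fibroblast genes had means of -0.88 to -0.15 in EpiSC, 0.56 to 0.75 in aCF and -0.87 to -0.63 in CF. These means hide a split in EpiSC against CF. Tnc, Fn1 and Postn were higher past the Bonferroni threshold, by 2.76, 1.06 and 0.75, and 0 were lower. With the Benjamini-Hochberg adjustment 3 were higher and 2 lower, Fap at -1.70 and Cilp at -1.30.

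**Figure D4:**
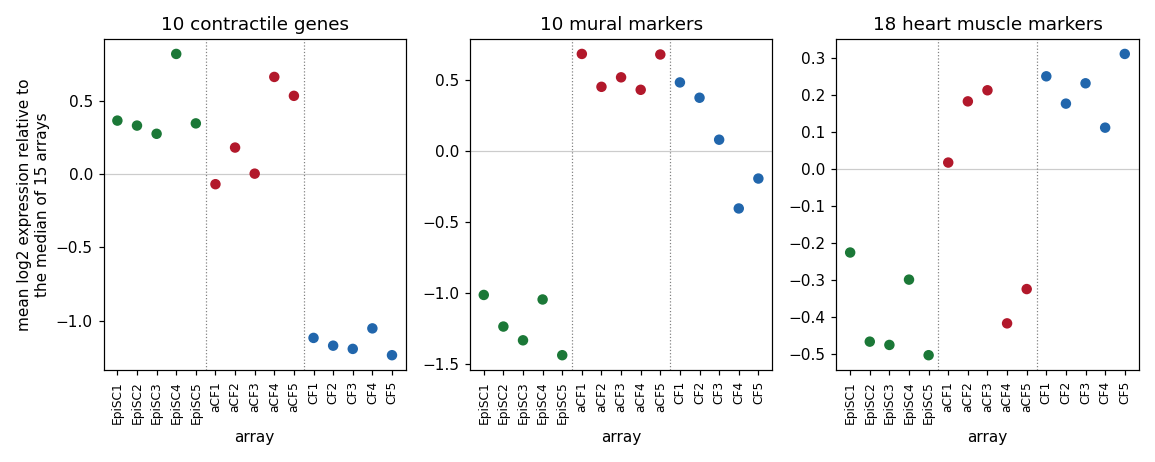
Mean log2 value of the 10 contractile genes, 10 mural markers and 18 heart muscle markers in each array (dots; EpiSC, aCF and CF from left to right, a separate vertical scale for each panel). Contractile means are lowest in the CF arrays, mural means lowest in the EpiSC arrays, and the heart muscle means of aCF4 and aCF5 fall among those of EpiSC.

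Other genes of the contractile apparatus were followed in 4 lists. The shares of all rows higher and lower apply to the marker lists too. In EpiSC against aCF they were 0.401% and 0.266% by Bonferroni, 4.61% and 5.01% by Benjamini-Hochberg, and 12% and 11.9% unadjusted. In aCF against CF they were 1.21% and 0.32% by Bonferroni, with 8.74% higher by Benjamini-Hochberg and 17.6% lower unadjusted. In EpiSC against CF 1.97% were higher by Bonferroni and 14.5% by Benjamini-Hochberg. Other shares are not given here. Of 24 further genes of smooth muscle actin and myosin, 15 had a value. In aCF against CF 3 of them were higher and 0 lower at the Bonferroni threshold, with a median of 0.28 over the 15, and 8 were higher and 1 lower with the Benjamini-Hochberg adjustment (10 and 3 at an unadjusted p under 0.05). They were Pdlim3, a LIM protein of the Z-disc and stress fibres, at 1.78 ± 0.18 (adjusted p = 0.0223), Csrp2, a LIM protein of smooth muscle, at 1.53 ± 0.08 (adjusted p = 5.07e-05), and Cnn3. In EpiSC against CF Csrp2 was higher, at 1.35 ± 0.09 (adjusted p = 0.000800). Ppp1r14a, an inhibitor of myosin phosphatase in smooth muscle, was lower, at -2.57 ± 0.20 (adjusted p = 0.00264), so it ran against Cnn1 and Actg2. Its values were -1.79, -2.02, -2.62, -1.63 and -1.34 in EpiSC and 0.78, 0.55, 0.74, 0.80 and 0.56 in CF. In EpiSC against aCF 1 gene was lower, Pdlim3, at -1.47 ± 0.11 (adjusted p = 0.00256), and 0 were higher (2 at an unadjusted p under 0.05 and 0 with the Benjamini-Hochberg adjustment).

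Of 30 genes of stress fibres and focal adhesions, 23 had a value, and their medians lay near 0 in each comparison, at -0.10 for EpiSC against aCF, 0.08 for aCF against CF and 0.01 for EpiSC against CF. At the Bonferroni threshold 1 was higher and 1 lower in EpiSC against aCF, 2 were higher and 0 lower in aCF against CF (8 and 4 at an unadjusted p under 0.05, 6 and 2 with the Benjamini-Hochberg adjustment), and 3 were higher and 0 lower in EpiSC against CF (7 and 7 unadjusted, 6 and 6 Benjamini-Hochberg). Palld, palladin, a scaffold of actin bundles, had the largest difference among them. Its values were -0.15, 0, 0.01, 0.20 and -0.11 in EpiSC, 0.21, 0.30, 0.13, 0.38 and 0.44 in aCF, and -3.06, -3.50, -3.43, -2.72 and -2.82 in CF. CF was separate from both other groups, at 3.40 ± 0.15 for aCF against CF (adjusted p = 7.46e-06) and 3.10 ± 0.15 for EpiSC against CF (adjusted p = 3.09e-05). Fhl2, a LIM protein of adhesions, was high in aCF, by 1.62 ± 0.15 over CF (adjusted p = 0.00937), and EpiSC differed from aCF by -1.03 ± 0.11 (adjusted p = 0.0380). Tes, testin, a focal adhesion protein, had values of 1.12, 1.41, 1.15, 0.89 and 1.14 in EpiSC, -0.06, -0.22, 0, 0.17 and 0.23 in aCF, and -0.59, -0.61, -0.66, -0.38 and -0.81 in CF. Like Des it was separate in all 3 groups, and it exceeded aCF by 1.12 ± 0.11 (adjusted p = 0.0294) and CF by 1.75 ± 0.10 (adjusted p = 0.000178) in EpiSC. Enah, which promotes the growth of actin filaments, was higher in EpiSC than in CF by 1.26 ± 0.08 (adjusted p = 0.000232).

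The third list held 16 genes for intermediate filaments and for associated proteins such as Cryab, Bag3 and Syne1. Of these, 7 had a value, and 0 passed in EpiSC against aCF or in aCF against CF. With the Benjamini-Hochberg adjustment the counts were 0 higher and 1 lower for EpiSC against aCF, and 2 and 2 for aCF against CF, and at an unadjusted p under 0.05 they were 3 and 1, and 4 and 2. Syne1 (nesprin 1), a linker of the nuclear envelope, was lower in EpiSC than in CF, at -1.84 ± 0.19 (adjusted p = 0.0379), but its second probe set gave 0.64 ± 0.23 (adjusted p = 1), so the probe sets disagree. Of 27 regulators of contractile genes, among them factors of the SRF and transforming growth factor pathways, 15 had a value. In EpiSC against aCF 0 of them passed the Bonferroni threshold, with 0 higher and 4 lower by Benjamini-Hochberg and 2 and 7 unadjusted. In aCF against CF 1 was higher and 1 lower by Bonferroni, and 6 and 5 unadjusted, with a median of 0.03. By Benjamini-Hochberg 4 were higher (Ccn2, Tead1, Tgfb1 and Wwtr1) and 4 lower (Klf4, Foxo1, Smad3 and Tgfbr2). In EpiSC against CF 0 were higher and 1 lower by Bonferroni. Ccn2, a matrix protein induced by transforming growth factor and by stretch, was higher in aCF than in CF by 1.14 ± 0.12 (adjusted p = 0.0484). Klf4, a repressor of smooth muscle genes in vascular cells, differed between aCF and CF by -1.08 ± 0.11 (adjusted p = 0.0225), with values of -0.20, -0.13, 0, -0.24 and -0.36 in aCF against 0.60, 1.01, 1.15, 0.92 and 0.77 in CF. Foxo1, a forkhead transcription factor, differed between EpiSC and CF by -1.16 ± 0.11 (adjusted p = 0.0221). Srf, Myocd, Mrtfa and Mrtfb had no value and were not analysed here.

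**Figure D5:**
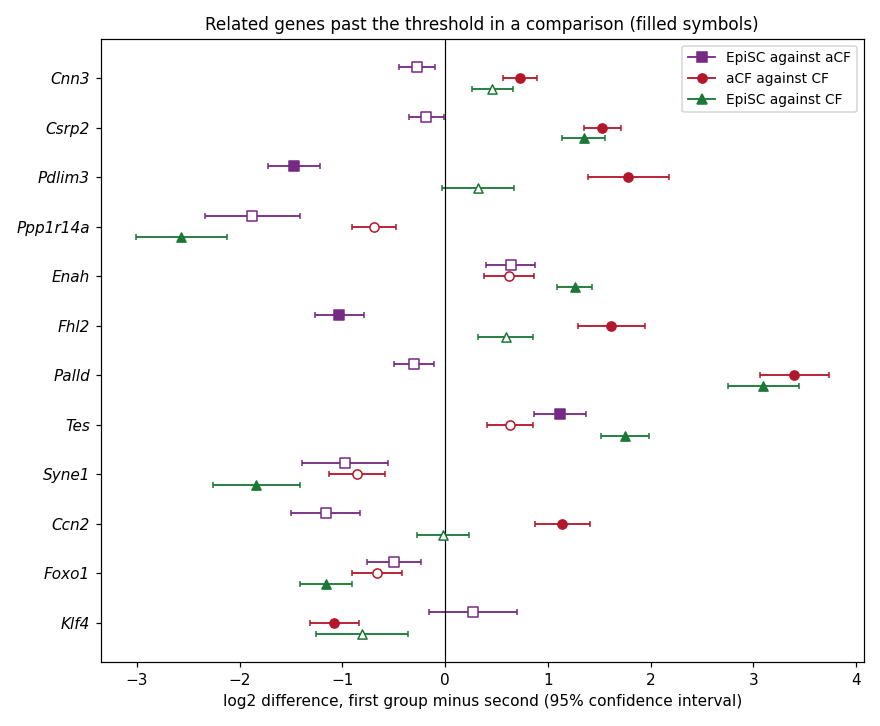
Log2 difference, first group minus second (horizontal axis), with 95% confidence intervals for the 12 related genes that passed the Bonferroni threshold in at least 1 comparison; squares are EpiSC against aCF, circles aCF against CF and triangles EpiSC against CF, and filled symbols passed. Palld lies furthest right, at 3.10 and 3.40 against CF, and Ppp1r14a furthest left, at -2.57 in EpiSC against CF.

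The genes whose pattern was most like that of Tagln and of Des were sought among 13512 other genes by Pearson correlation over the 15 arrays. Such values mostly follow the group means, so the correlation of deviations within groups is given beside them. Nearest to Tagln were Cemip, a protein in hyaluronan breakdown, with 0.986 over all arrays and 0.821 within groups, then P4ha3, Mir675, Ddah1 and Arxes2, with 0.978 to 0.980 over all arrays. Those after Cemip had 0.651, 0.532, 0.723 and 0.770 within groups, in that order. Cemip averaged 0.38 in EpiSC, 2.21 in aCF and -3.22 in CF, a wider span than Tagln. Nearest to Des were Rras2, a small GTPase, with 0.984 over all arrays and 0.565 within groups, and Tes, with 0.984 and 0.590. Then came Ociad2, Psma7 and Anxa2 with 0.982 over all arrays and 0.518, 0.654 and 0.702 within groups, in that order. The 5 genes nearest to Tagln had their highest means in aCF, as Tagln did, and the 5 nearest to Des had theirs in EpiSC, as Des did. Choosing genes by correlation over these arrays largely fixes this, so it is only a description.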

How the data were processed

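RNA from 15 samples was measured on Affymetrix arrays after amplification from 1 ng of RNA, per the labels. The deposited values are log2 expression that the authors made with GeneSpring GX 12.5, per the series design text: quantile normalization of probe signals, exon-level RMA summaries, then subtraction of each probe set's median over all samples. The log base is inferred from the method and from the range of -4.77 to 5.52. The authors' filter on dim signal could not be applied to centred values, so all 22206 rows were tested, and the number of arrays limits the precision.

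Of these rows, 15303 were paired with an identifier by the displacement described above and 6903 were not. The displacement was found from the values themselves. The platform annotation gives 19572 probe sets 1 symbol, 2634 none and 0 several, and the first paired probe set was used for each of 13513 genes. Of the arrays, no pair shared more than 2.45% of values.

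Groups came from the titles. Pairs of groups were tested by lmFit and eBayes of limma 3.58.1 (R 4.3.3), two-sided and without a block, with Bonferroni adjustment over all rows and a threshold of 0.05, as the design text states. The code was tested on simulated data. The 10 genes, the lists and the rule for further names were chosen with earlier results of these data known. Named beyond the 10 genes are those of 4 lists of related genes that passed in a comparison, at most 6 per list and comparison by size, set markers, and the 5 genes most like Tagln and Des.

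Alternatives were all groups in 1 fit, Benjamini-Hochberg adjustment, quantile normalization, a trended and robust fit, a replicate block, each array left out, aCF4 and aCF5 left out, and identifiers as deposited. Leaving out all arrays numbered 4 was added after seeing the data.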

Additional observations from a re-analysis of the deposited data

Results flagged for a closer look

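With 5 arrays in a group, a sample was singled out where its gap to the nearest other array, divided by the range of the group, exceeded 0.71. Of 30 groups of values for the 10 genes, 5 met this, and these 5 were the only ones among all 66 groups examined. Chance alone gives about 1 in 20 for independent groups. These groups share arrays and their genes correlate, so the count was not tested against chance. In 4 of the 5 EpiSC4 was the high array. Tagln in EpiSC4 was 0.72 with the nearest other array at 0.05 (ratio 0.882). Cnn1 in EpiSC4 was 1.85 with the nearest at 0.53 (ratio 0.714). Tpm1 in EpiSC4 was 0.63 with the nearest at 0.27 (ratio 0.973). Tpm2 in EpiSC4 was 0.86 with the nearest at 0.51 (ratio 0.795). The mural mean of this array was -1.05 and its heart muscle mean -0.30, both within the range of the other EpiSC arrays. The other was Des in CF1, the low array, at -1.27 with the nearest at -1.04 (ratio 0.958). No cause was tested.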

How the results depend on the processing

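The counts of the 10 genes past the threshold were 1 for EpiSC against aCF, 3 for aCF against CF and 5 for EpiSC against CF. With each array left out in turn they were 0 to 1, 1 to 3 and 3 to 5. For EpiSC against aCF the count was 0 after quantile normalization, with the replicate block, without aCF4 and aCF5 and with identifiers as deposited, and 3 with Benjamini-Hochberg adjustment. For aCF against CF it was 1 after quantile normalization, with the replicate block and without all arrays numbered 4, and 9 with Benjamini-Hochberg adjustment. With identifiers as deposited it was also 1, but that call was Tagln as lower in aCF, at -1.08. For EpiSC against CF it was 8 with Benjamini-Hochberg adjustment and 0 with identifiers as deposited. Des in EpiSC against aCF had an adjusted p of 0.0906 after quantile normalization, at 1.46, and 0.0902 without aCF4 and aCF5, at 1.84. Identifiers read as deposited turned the sign of 19 of 30 differences, 5 of them among the 9 past the threshold: Des in EpiSC against aCF was -0.024, Tagln in aCF against CF -1.08, Tagln in EpiSC against CF -0.80, Cnn1 in EpiSC against CF -0.32 and Des in EpiSC against CF -0.032. The trended and robust fit changed 0 of 30 calls. With all 3 groups in 1 fit the counts were 1, 4 and 7, the added calls being Actg2 in aCF against CF (adjusted p = 0.00803) and Tagln2 (0.0209) and Tpm1 (0.0329) in EpiSC against CF. Same-numbered arrays of different groups had correlations of deviations of -0.02 to 0.16, and no label ties a number to a heart, so the numbers were not taken to pair samples, although EpiSC and aCF arrays may share hearts. With the replicate block, 4 of 30 calls were lost: Des in EpiSC against aCF (adjusted p = 0.715), Cnn1 (0.335) and Tpm2 (0.633) in aCF against CF, and Cnn1 in EpiSC against CF (0.225). In EpiSC against aCF 4 of 5 numbers correlated best with their own, and in the other comparisons 1 of 5. The alternative of another probe set was not run because each of the 10 genes has 1. The cause of these changes was not tested.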
